A study of Mus musculus with 6 samples.

Results

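The transcription factors at the core of the naive pluripotency network were followed in mouse embryonic stem cells before and after deletion of Dicer. The set holds 10 genes: Pou5f1, Sox2, Nanog, Esrrb, Tfcp2l1, Tbx3, Nr5a2, Prdm14, Zfp42 and Sall4. They were chosen by name, and each was read through the probe sets whose sole gene symbol was that gene. All 10 were measured, each by exactly 1 such probe set, among 19938 genes and 21789 probe sets with a single symbol. No gene of the set therefore has a second probe set to compare.

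The untreated group was 3 arrays of embryonic stem cells with both Dicer alleles floxed (Dicer Fx/Fx) and no deletion. The tamoxifen group was 3 arrays of cells of that genotype after tamoxifen-induced deletion, given 3 days of tamoxifen and collected on day 5, after 2 days without it. The labels name standard culture conditions, without saying whether LIF, serum or kinase inhibitors were present. They name neither the recombinase on which tamoxifen acts nor the number of clones, and give no collection day for untreated cells. Tamoxifen-treated wild-type cells (E14) are mentioned in the protocol and were not analysed here, so effects of tamoxifen and of Dicer loss cannot be told apart. The labels do not say that the 3 samples of a group were separate cultures, and p-values here measure no more than the spread among these arrays, which may be technical.

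A mouse embryonic stem cell holds its undifferentiated state through a small group of transcription factors that bind each other's regulatory regions and keep one another expressed. OCT4 (the product of Pou5f1) and SOX2 bind DNA side by side, and NANOG, ESRRB and the other factors join them at enhancers across the genome. Dicer cuts hairpin precursors into mature microRNAs. In these cells microRNAs act on the cell cycle and on the exit from pluripotency, and several have been described as acting on transcripts of the network itself.

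Promoter windows of the factors were searched for octamer and SOX elements, and those of Nanog and Zfp42 are shown. Of the 10 factors, 7 had promoter windows in RefSeq's table (11 windows of 300 bases, from 250 before to 50 after each annotated start, build GRCm38.p6). Prdm14, Tbx3 and Sall4 had none there and were not searched. The Nanog window at chr6:122707239-122707538 (+ strand) carries an octamer-like element and, after 1 further base, a SOX-like element, all in capitals, and the Zfp42 window at chr8:43306960-43307259 (- strand) carries a full octamer, also in capitals.
Nanog: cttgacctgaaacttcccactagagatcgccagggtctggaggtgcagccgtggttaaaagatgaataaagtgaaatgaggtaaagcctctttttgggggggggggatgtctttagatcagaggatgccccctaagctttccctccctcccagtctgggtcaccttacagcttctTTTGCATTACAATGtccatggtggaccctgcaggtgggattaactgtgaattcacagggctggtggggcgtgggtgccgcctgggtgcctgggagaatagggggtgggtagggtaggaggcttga
Zfp42: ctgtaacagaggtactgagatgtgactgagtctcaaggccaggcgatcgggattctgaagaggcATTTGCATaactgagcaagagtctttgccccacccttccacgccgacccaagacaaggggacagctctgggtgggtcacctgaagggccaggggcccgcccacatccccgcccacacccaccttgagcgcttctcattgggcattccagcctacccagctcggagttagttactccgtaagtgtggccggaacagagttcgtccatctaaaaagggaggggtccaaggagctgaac
The joint element, searched on both strands as the octamer core TTTGCAT, then any 1 base, then ACAA, was found in both Nanog windows and in 12 of all 32851 windows (0.0365%). The Nanog windows overlap and hold the same site, and both are counted among the 12. The core TTTGCAT alone, which the joint element contains, was held by 4.63% of all windows and was found for Nanog, Sox2 and Zfp42. The full octamer ATTTGCAT was held by 1.74% of windows and, among the 7 factors with windows, was found in that of Zfp42 alone, 186 bases before the start. The SOX-like hexamer ACAATG was held by 12.6% of windows and was found for Nanog, Esrrb and Pou5f1. These matches describe letters in the windows and do not show binding. Sequence outside the windows, enhancers included, was not searched.

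On the microRNA side, miR-134, miR-296 and miR-470 have been described as acting on the coding regions of Nanog, Pou5f1 and Sox2, and let-7 as lowering Sall4. The miR-294 sequence stands for the miR-290 cluster, whose products abound in these cells. The seed, bases 2 to 8, is in capitals.
miR-134-5p: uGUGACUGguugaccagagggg
miR-296-5p: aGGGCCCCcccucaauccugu
miR-470-5p: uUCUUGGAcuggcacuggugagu
miR-294-3p: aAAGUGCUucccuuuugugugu
let-7a-5p: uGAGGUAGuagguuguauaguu
All 5 seeds differ. The arrays measured the transcripts of the factors, not these microRNAs.

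Dicer1 was at 27.7% of its untreated signal after tamoxifen (95% confidence interval 24.6% to 31.1%), lower on all 3 tamoxifen arrays than on any untreated array. Over all genes, 7.78% were called at an adjusted p under 0.05 (limma, Benjamini-Hochberg), 3.79% higher and 3.99% lower. With the replicate number as a block the called share was 17.4%. The 9 markers listed for embryonic stem cells had log2 group means from 9.77 to 13.96, with 0 called by limma. They include Pou5f1, Sox2, Nanog, Zfp42 and Esrrb, so they are not a separate check on the set. Before adjustment 0 were higher and 4 lower (Zfp42, Lin28a, Utf1 and Tdgf1) at a limma p under 0.05, beside 24.5% of all genes. With the replicate block 3 (Lin28a, Utf1 and Tdgf1) fell, beside 17.4% of all genes called. The defining markers of primitive endoderm (Gata4, Gata6, Sox17, Sox7) had group means from 6.24 to 8.26, those of trophoblast from 6.09 to 8.68 and the fibroblast markers Col1a1, Col1a2, Col3a1 and Thy1 from 7.23 to 8.32, in a table whose array medians lay near 7.2. Of the mesendoderm markers, T was not among the genes measured. Mixl1 and Gsc lay from 6.96 to 8.24, and Gsc was called higher. The neuroectoderm markers Sox1 and Pax6 lay from 8.05 to 9.08, and 1 was higher at a limma p under 0.05 before adjustment. The longer lists used below reached into the range of the stem cell markers, with group means up to 10.08 for primitive endoderm and 10.56 for trophoblast. Correlations between arrays were 0.996 to 0.998 within a group and 0.993 to 0.996 between groups.

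One of the 10 factors was called after tamoxifen: Prdm14 rose 1.33-fold. The other 9 were not called, and their changes lay between -0.21 for Nr5a2 and 0.20 for Tfcp2l1 on the log2 scale. This is 1 called gene of 10, beside 7.78% of all genes. With the replicate block it was again Prdm14 alone, beside 17.4% of all genes (7.87% higher and 9.54% lower). The median change of the set was 0.05 and that of all genes 0.01. The median size of a change, without its sign, was 0.14 in the set and 0.10 over all genes. Before adjustment, limma's p was under 0.05 for 2 higher factors (Prdm14 and Tfcp2l1) and 1 lower (Zfp42), and for 24.5% of all genes. Groups did not overlap for 5 of the 10 factors, against 29.3% of all genes, and all 3 replicate pairs moved in 1 direction for 7, against 51.7%. In this fit no gene of the table with a change smaller than 0.22 was called, and the changes of the other 9 factors were smaller than that; other settings called some of them, as given below for Tfcp2l1 and Zfp42.

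**Figure D1:**
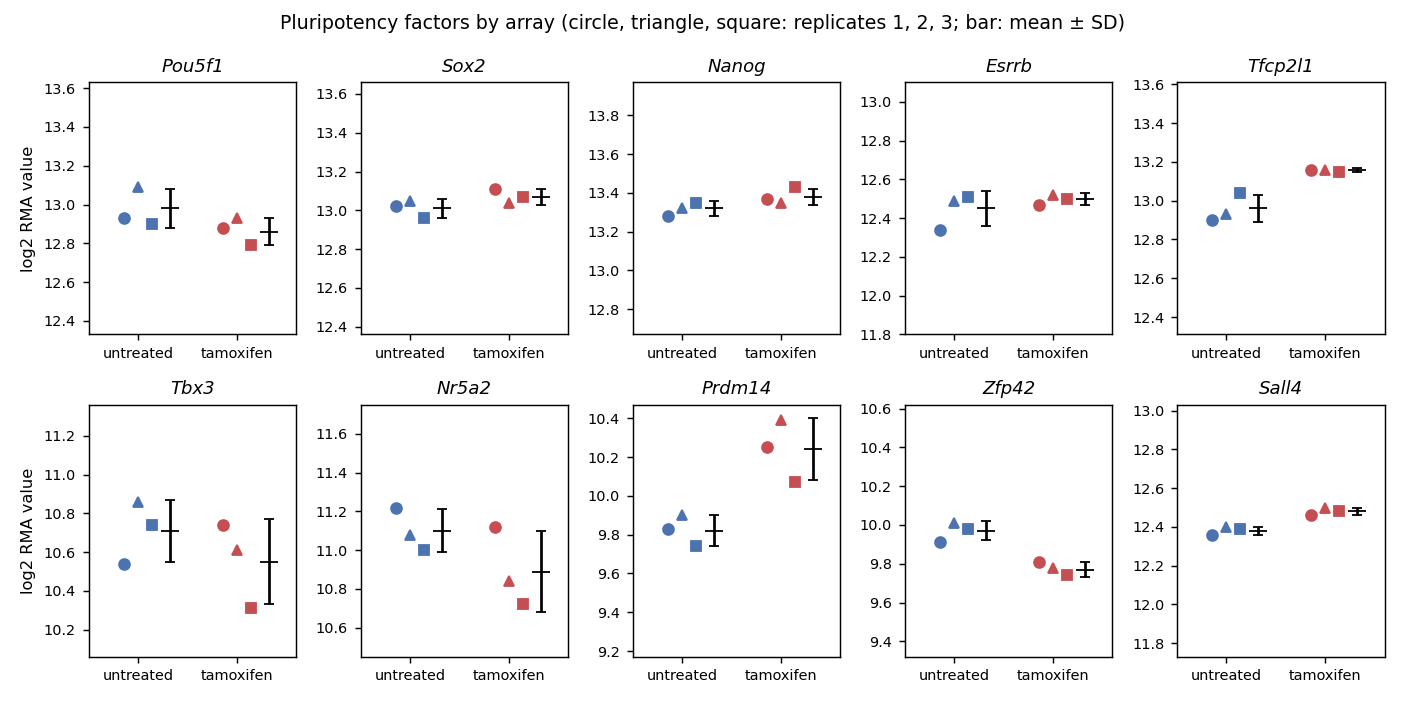
Log2 RMA value of each factor on each array, untreated in blue and tamoxifen in red, with the replicate number as the marker shape and the group mean ± SD (n = 3) as a black bar; every panel spans the same range on the log2 scale. Prdm14 shows the widest gap, with its tamoxifen arrays at 10.07 to 10.39 and its untreated arrays at 9.74 to 9.90, while Pou5f1, Sox2, Esrrb, Tbx3 and Nr5a2 overlap between groups.

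Pou5f1, Sox2 and Nanog, the factors around which the network is built, were not called. Pou5f1, the POU factor without which pluripotent cells do not form, read 12.93, 13.09 and 12.90 on untreated replicates 1 to 3 and 12.88, 12.93 and 12.79 on tamoxifen replicates 1 to 3. The groups overlapped, with the highest value on untreated replicate 2 and the lowest on tamoxifen replicate 3. The change was -0.11 ± 0.07 (log2, SE; limma adjusted p = 0.396), and the 95% confidence interval put the tamoxifen level between 82.4% and 104% of the untreated one. It was -0.05 without untreated replicate 2 and -0.07 without tamoxifen replicate 3.

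Sox2, the HMG-box partner of OCT4, read 13.02, 13.05 and 12.96 untreated and 13.11, 13.04 and 13.07 after tamoxifen. Its groups overlapped as well, and the second replicate pair moved against the other two. The change was 0.06 ± 0.06 (limma adjusted p = 0.597), with an interval from 94.8% to 114% of the untreated level.

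Nanog, the homeodomain factor whose promoter window carries the joint octamer and SOX element shown above, read 13.28, 13.32 and 13.35 untreated and 13.37, 13.35 and 13.43 after tamoxifen. The lowest tamoxifen and the highest untreated value both round to 13.35, and the groups did not overlap. The change was 0.07 ± 0.06 (limma adjusted p = 0.52), and the interval, 95.6% to 115%, leaves room for a small change in either direction. For these 3 factors, no setting tried gave a call: adjusted p-values ran from 0.206 to 0.752 for Pou5f1, 0.437 to 0.825 for Sox2 and 0.328 to 0.769 for Nanog.

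Sall4, a zinc-finger factor that works with OCT4 and the NuRD complex and has been described as a let-7 target, had replicates that lay close together. It read 12.36, 12.40 and 12.39 untreated and 12.46, 12.50 and 12.48 after tamoxifen, an SD of 0.02 in both groups. All tamoxifen values lay above all untreated values, and the replicate pairs differed by 0.10, 0.10 and 0.09. The change of 0.10 ± 0.06 was not called (limma adjusted p = 0.332); limma's SE is larger than the replicate spread alone gives because it borrows from the spread of all genes. The interval ran from 97.9% to 117% of the untreated level.

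Esrrb and Nr5a2 encode orphan nuclear receptors that sustain Nanog and Pou5f1 expression, and they differed in direction and in spread. Esrrb read 12.34, 12.49 and 12.51 untreated and 12.47, 12.52 and 12.50 after tamoxifen. Apart from the low untreated replicate 1, all its values fell between 12.47 and 12.52. The change was 0.05 ± 0.07 (limma adjusted p = 0.699), and without untreated replicate 1 it was -0.00.

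Nr5a2 (LRH-1), which acts on the Pou5f1 gene, read 11.22, 11.08 and 11.00 untreated and 11.12, 10.84 and 10.72 after tamoxifen. The groups overlapped, because replicate 1 was the highest array in each of them. All 3 replicate pairs fell, by 0.10, 0.25 and 0.28. The change of -0.21 ± 0.11 was not called (limma adjusted p = 0.274), nor was it with the replicate block, where its SE was 0.06 and the adjusted p was 0.054. The interval ran from 73.1% to 102% of the untreated level. Without tamoxifen replicate 1 the change was -0.32 and without tamoxifen replicate 3 it was -0.12.

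Tfcp2l1 and Tbx3 lie downstream of LIF signalling in the described network. Tfcp2l1, a CP2-family factor and a main target of STAT3, read 12.90, 12.93 and 13.04 untreated and 13.16, 13.16 and 13.15 after tamoxifen. The tamoxifen arrays agreed to 0.01 and all lay above the untreated ones. The change was 0.20 ± 0.06, or 1.15-fold, with a 95% interval of 104% to 127% of the untreated level and a limma adjusted p of 0.0873. It was called with array weights and with the trended robust prior (adjusted p = 0.0279 at the lowest) and in none of the other 14 settings.

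Tbx3, a T-box factor tied to PI3K signalling and to the choice between self-renewal and extraembryonic endoderm, had the largest SD of the set in both groups, 0.16 and 0.22. It read 10.54, 10.86 and 10.74 untreated and 10.74, 10.61 and 10.31 after tamoxifen. The groups overlapped and the replicate pairs disagreed: replicate 1 was 0.19 higher, while replicates 2 and 3 changed by -0.26 and -0.43. The change was -0.16 ± 0.12 (limma adjusted p = 0.448). It was -0.26 without tamoxifen replicate 1 and -0.04 without tamoxifen replicate 3.

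Zfp42 (Rex1), a zinc-finger factor whose expression marks the naive state and whose promoter window holds the full octamer shown above, read 9.91, 10.01 and 9.98 untreated and 9.81, 9.78 and 9.74 after tamoxifen. All tamoxifen values lay below all untreated values, and all 3 pairs were lower. The change was -0.19 ± 0.06, which puts the tamoxifen level at 87.4% of the untreated one (95% interval 79.5% to 96.1%). Adjusted over all genes it was not called (limma adjusted p = 0.0876). The adjusted p was 0.0604 with the replicate block and 0.0395 with array weights, the only setting of 16 that called it.

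**Figure D2:**
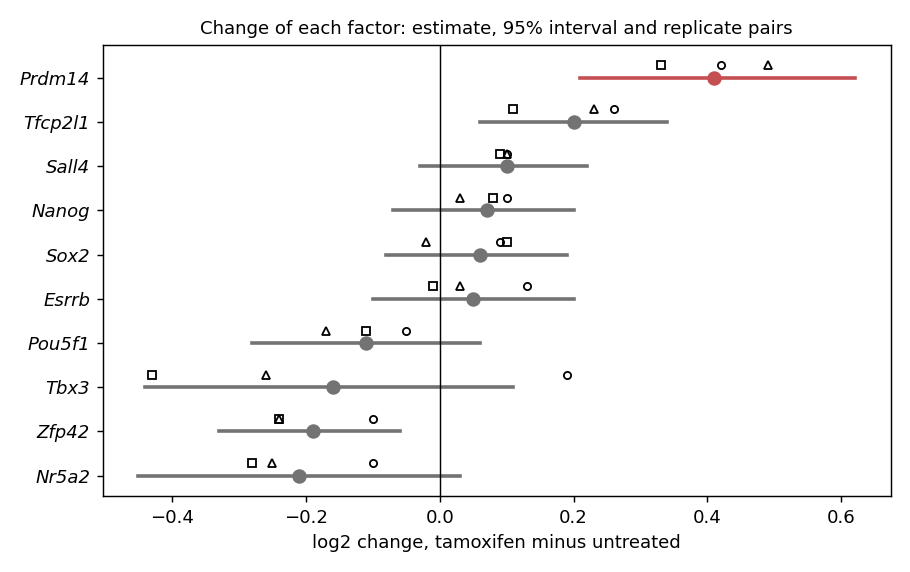
Log2 change of each factor, tamoxifen minus untreated (filled point), with its 95% confidence interval from limma (line) and the difference within each replicate pair (open circle, triangle and square for replicates 1, 2 and 3); red marks the called factor. The changes run from -0.21 for Nr5a2 to 0.41 for Prdm14, and the pairs of Tbx3 lie on both sides of 0.

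Prdm14, a PR-domain zinc-finger protein of naive cells and primordial germ cells that restrains FGF signalling and the de novo DNA methyltransferases, rose. It read 9.83, 9.90 and 9.74 untreated and 10.25, 10.39 and 10.07 after tamoxifen. All tamoxifen arrays lay above all untreated arrays, and replicate 2 was highest and replicate 3 lowest in both groups. The change was 0.41 ± 0.09, 1.33-fold (limma adjusted p = 0.0281), with an interval from 116% to 153% of the untreated level. The replicate pairs rose by 0.42, 0.49 and 0.33. Only 4.5% of all genes had a larger change. With 3 arrays a group, the two-sided exact permutation test can go no lower than the p = 0.1 it gave here.

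The rise in Prdm14 kept its direction in all 16 other settings, while its call depended on the arrays. When 1 array was left out the change ran from 0.34 to 0.50, and the call was kept in 1 of 6 fits, that without tamoxifen replicate 3 (adjusted p = 0.0302). Leaving out untreated replicates 1, 2 or 3 gave adjusted p-values of 0.0552, 0.0652 or 0.0777. Leaving out tamoxifen replicates 1 or 2 gave 0.0533 or 0.0998. In the fit to every probe set of the table, including those with no listed gene, it was 0.0956. With the replicate block the change was 0.41 ± 0.06 (adjusted p = 0.00349).

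**Figure D3:**
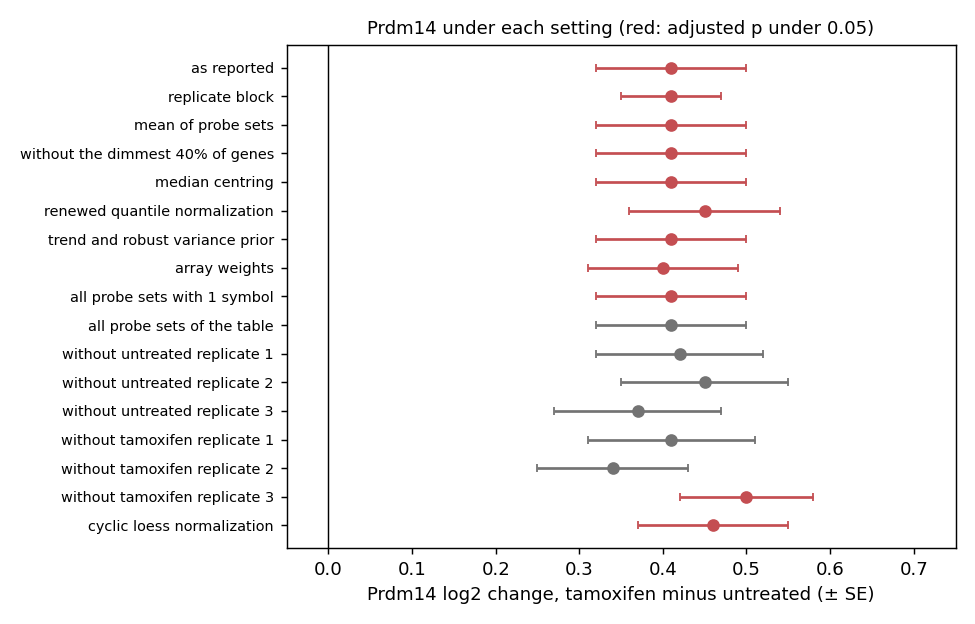
Log2 change of Prdm14, tamoxifen minus untreated, with limma's SE, as reported and under each of 16 other settings; red points have an adjusted p under 0.05. The change stays between 0.34 and 0.50, and 6 settings, 5 of them leaving out 1 array, are not called.

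Genes described as held down by PRDM14 were set beside it. Dnmt3l was added after its values were seen, so its change is a description only. A link between Prdm14 and the changes of these genes was not tested. The de novo methyltransferase Dnmt3b changed by -0.42 ± 0.20 (limma adjusted p = 0.232, or 0.00293 with the replicate block). Without tamoxifen replicate 1 its change was -0.21 (adjusted p = 0.472), and it ran to -0.60 without untreated replicate 1. Dnmt3a changed by 0.12 ± 0.17 (adjusted p = 0.715). Their cofactor Dnmt3l fell, from 12.26 ± 0.18 to 11.42 ± 0.18 (SD, n = 3), a change of -0.84 ± 0.11 with a limma adjusted p of 0.00616. Cbfa2t2, the corepressor that partners PRDM14, had a change of -0.00 ± 0.06 and an interval from -0.14 to 0.14.

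The 3 genes whose 6 values lay closest to those of Prdm14, each gene centred on its own mean, were Samd12, Igll1 and Xylt1, at root mean square differences of 0.0401, 0.0419 and 0.045 on the log2 scale. They were picked from all other genes over 6 arrays, so their likeness to Prdm14 is a description. Xylt1, which starts the sugar chains of proteoglycans, read 8.45, 8.57 and 8.42 untreated and 9.02, 9.06 and 8.72 after tamoxifen.

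Across the set, the arrays did not shift as a block. Setting each factor to its untreated mean, the mean deviation over the 10 factors was 0.07, 0.04 and -0.04 on tamoxifen replicates 1, 2 and 3 and -0.04, 0.05 and -0.01 on the untreated ones. Tamoxifen replicate 3 was the lowest of the 6 arrays for Pou5f1, Tbx3, Nr5a2 and Zfp42, and the highest for Nanog. Untreated replicate 1 was the lowest for Nanog, Esrrb, Tfcp2l1 and Sall4. The lowest array was untreated replicate 3 for Sox2 and Prdm14.

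Of 22 other pluripotency genes, not all of them particular to the naive state, 20 were measured. Of these 3 rose, 0 fell and 17 were not called, a called share of 15% beside 7.78% of all genes, with a median change of -0.01. Before adjustment 4 were higher and 4 lower at a limma p under 0.05, beside 24.5% of all genes. Gdf3, a TGF-beta family ligand, rose by 0.55 ± 0.08 (limma adjusted p = 0.00824), and the Krüppel-like factor Klf2 by 0.58 ± 0.09 (adjusted p = 0.00903); both kept their call whichever array was left out. Alpl, the alkaline phosphatase used to stain stem cell colonies, rose by 0.45 ± 0.08 (adjusted p = 0.0133) and is named outside the rule; leaving out single arrays kept its call 4 times in 6. Klf4 had a change of 0.00 ± 0.08 and the OCT4 partner Nr0b1 of 0.00 ± 0.10. Blocking on the replicate number gave 3 rises and 4 falls, beside 17.4% of all genes called with the block. The falls were Fgf4, Lin28a, Utf1 and Tdgf1 at -0.32, -0.30, -0.26 and -0.24, named after their values were seen. Their adjusted p-values were 0.00835, 0.0133, 0.0193 and 0.0326 with the block and 0.103, 0.0552, 0.0574 and 0.0912 without it.

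LIF signals through the receptor pair of LIFR and gp130 to STAT3, which in turn sustains Tfcp2l1 and Klf4. Of 11 measured genes of this pathway, 1 rose and 2 fell, 27.3% beside 7.78% of all genes, with a median of -0.05. Before adjustment 3 were higher and 3 lower at a limma p under 0.05, beside 24.5% of all genes. Il6st, which encodes gp130, rose from 11.27 ± 0.07 to 11.69 ± 0.06, a change of 0.42 ± 0.07 (limma adjusted p = 0.00998) that was called whichever array was left out. Pim3, a kinase gene induced by STAT3, fell by 0.41 ± 0.09 (adjusted p = 0.0248), and Ptpn11, the phosphatase SHP2 that links gp130 to the ERK pathway, fell by 0.33 ± 0.07 (adjusted p = 0.029). Leaving out single arrays kept each of these calls 2 times in 6, with adjusted p-values up to 0.0923 and 0.11. Stat3 itself had a change of 0.09 ± 0.07 (adjusted p = 0.477), and Socs3, its feedback target, of -0.10 ± 0.09 (adjusted p = 0.535). With the block 3 rose and 2 fell, beside 17.4% of all genes called with it. The additions were Lifr (0.36, block adjusted p = 0.00748) and Jak2 (0.30, block adjusted p = 0.0387).

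Of 12 measured factors described as restraining the naive network, 0 were called by limma, 0 had a p under 0.05 before adjustment, and 0 were called with the replicate block. Over all genes the corresponding shares were 7.78%, 24.5% and 17.4%. The smallest p-values were those of Tcf7l1, the repressor of Nanog and Esrrb that GSK3 inhibition relieves (0.18 ± 0.08, adjusted p = 0.215), and of Fnip1, a partner of folliculin (-0.15 ± 0.07, adjusted p = 0.257). Among 20 cofactors of the set (NuRD subunits and other partners) 0 were called by limma, and 1 had a p under 0.05 before adjustment. That gene was Gatad2b, a NuRD subunit, at 0.22 ± 0.06 (adjusted p = 0.0546, or 0.0353 with the block). Its relative Gatad2a had a change of -0.17 ± 0.08 (adjusted p = 0.218).

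Relatives of the factors in the same gene families were listed too. Of 24 measured, 3 rose and 0 fell, 12.5% beside 7.78% of all genes, with a median of 0.07. Before adjustment 8 were higher and 2 lower at a limma p under 0.05, beside 24.5% of all genes. Blocking on the replicate number gave 8 rises and 2 falls, beside 17.4% of all genes. The falls with the block were Pou2f3 (-0.74, the largest change of the list; adjusted p = 0.0916, block adjusted p = 0.000308) and Sox15 (-0.39; 0.194 and 0.00386), both named outside the rule. Sox21, a SOX gene of the stem cell and early neural programme, rose by 0.68 ± 0.10 (limma adjusted p = 0.00924; kept in 6 of 6 leave-one-out fits), where Sox2 changed by 0.06. Tbx4 rose by 0.34 ± 0.06 (adjusted p = 0.015; kept in 3 of 6), at a signal of 6.83 ± 0.04 in untreated cells. In the SALL family, Sall3 rose by 0.46 ± 0.10 (adjusted p = 0.0281; kept in 1 of 6, and named outside the rule). Sall2 (0.41) and Sall1 (0.27) were called with the block (block adjusted p = 0.00993 and 0.0369) and not in the fit as reported. Sall2 was also called without tamoxifen replicate 1 (0.56, limma adjusted p = 0.0131). Sall4 was called neither as reported nor with the block. No test of the difference between relatives was made.

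Markers of the primed epiblast, primitive endoderm and trophoblast, read against 7.78% of all genes called without and 17.4% with the block, came next. Before adjustment, limma's p was under 0.05 for 24.5% of all genes. Of 10 primed epiblast markers 0 were called by limma, with p under 0.05 before adjustment for 2 higher genes and 0 lower ones; 1 rose and 1 fell with the block. The smallest p-values were those of Sall2 (adjusted p = 0.0855) and Cdh2, N-cadherin (0.36 ± 0.13, adjusted p = 0.131), and Fgf5, the standard marker of the primed state, had a change of 0.08 ± 0.08. Among 13 primitive endoderm markers 0 were called by limma (before adjustment 1 higher and 2 lower; with the block 1 and 2), led by Pdgfra at 0.36 ± 0.09 (adjusted p = 0.0518) and Sox7 at -0.28 ± 0.08 (adjusted p = 0.0603). Among 13 trophoblast markers 0 were called by limma (before adjustment 2 and 2; with the block 1 and 3), led by Cdh3 at 0.27 ± 0.08 (adjusted p = 0.0722) and Ascl2 at -0.52 ± 0.18 (adjusted p = 0.107).

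Of 8 measured mesendoderm markers, Gsc (0.32 ± 0.08, limma adjusted p = 0.042) and Kdr (0.26 ± 0.07, adjusted p = 0.0468) rose, 25% beside 7.78% of all genes. T was listed and not measured. Before adjustment 2 were higher and 1 lower at a limma p under 0.05, beside 24.5% of all genes. Kdr had group means of 5.67 untreated and 5.94 after tamoxifen, below the array medians of 7.19 to 7.26. The calls of Gsc and Kdr were kept in 2 and 0 of 6 leave-one-out fits, with limma adjusted p-values up to 0.157 and 0.172. With the block 2 rose and 1 fell, the fall being Eomes, named outside the rule, at -0.57 ± 0.23 (adjusted p = 0.174, block adjusted p = 0.00745). Of 9 neuroectoderm markers Zfp521 rose, by 0.85 ± 0.12 (limma adjusted p = 0.00726, kept in 6 of 6), 11.1% beside 7.78% of all genes. Before adjustment 4 were higher and 1 lower at a limma p under 0.05, beside 24.5% of all genes. With the block 3 rose, beside 17.4% of all genes. The additions were Tubb3 (0.52, block adjusted p = 0.00204) and Sox1 (0.29, block adjusted p = 0.0211), both named outside the rule. The array medians of this list lay at 7.79 to 8.16 untreated and 8.25 to 8.32 after tamoxifen. Of 12 fibroblast markers, which would read carried-over feeder cells, 0 were called by limma (before adjustment 0 higher and 1 lower; with the block 0 and 1), led by Thy1 (-0.32 ± 0.11, adjusted p = 0.0985) and Col1a1 (0.20 ± 0.09, adjusted p = 0.223). Per array, the median of the fibroblast list lay at 6.71 to 6.90 untreated and 6.89 to 6.99 after tamoxifen, and its part in the values of the factors was not tested. In bulk RNA, a change in the share of cells that express a factor and a change in its RNA per cell cannot be told apart.

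**Figure D4:**
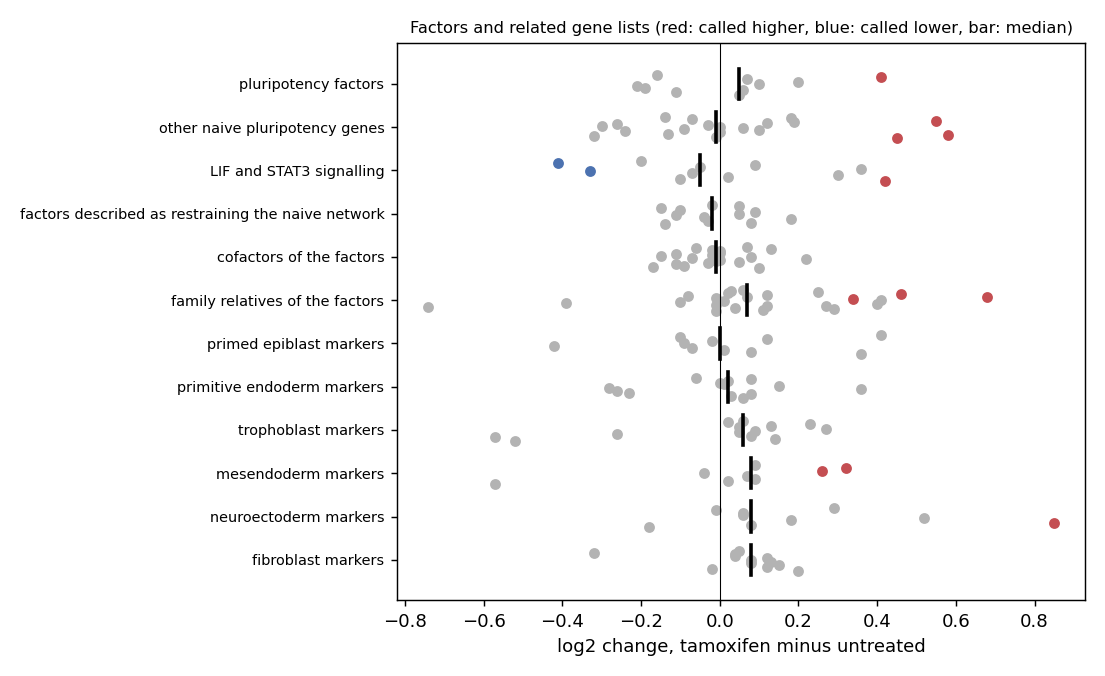
Log2 change, tamoxifen minus untreated, of each measured gene of the factor set and of 11 related lists; each point is a gene, red called higher, blue called lower and grey not called, and the black bar is the list's median. Medians lie between -0.05 and 0.08, and Zfp521 at 0.85 and Sox21 at 0.68 are the largest rises shown.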

How the data were processed

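RNA of 6 samples was measured on 6 Affymetrix arrays. The deposited values are RMA estimates on a log2 intensity scale. Per the submitters' processing notes, the authors ran RMA in Affymetrix Expression Console 1.2. That method subtracts background, gives all arrays 1 distribution by quantile normalisation, and combines a probe set's probes. A shift shared by most transcripts would therefore not be visible. RMA gives no detection or saturation call. The log2 scale follows from the values, 3.18 to 14.6 with array medians from 7.19 to 7.26. The annotation's genome build is not given in the sources used here.

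Of 35556 probe sets, 21789 had exactly 1 gene symbol; 1621 with several and 12146 with none were not named. The brightest probe set of each gene over the 6 arrays gave 19938 genes. Tamoxifen was compared with untreated with limma 3.58.1 under R 4.3.3, using lmFit, eBayes and two-sided p-values. Dim genes were kept, and p-values were Benjamini-Hochberg adjusted over all 19938 genes. A gene was called at an adjusted p under 0.05. Intervals are 95% confidence intervals from the same fit. The code was tested on simulated arrays. Having 6 arrays limits precision throughout.

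The factors and gene lists were chosen with earlier results of these data known. Named genes are the 10 factors, Dicer1, up to 2 called genes per direction and list (or the 2 smallest p-values where none was called), and the 3 genes nearest to each called factor; others are said to be outside this rule. The labels number both groups 1 to 3. After removing group means, the arrays numbered 1, 2 and 3 correlated with their namesakes at 0.356, 0.345 and 0.389 across genes. Between the groups, arrays with different numbers correlated at -0.115 at most. The numbers were taken as a pairing, and a blocked fit on replicate number was run too. The fit as reported leaves this pairing out. Promoter and microRNA sequences are RefSeq's on GRCm38.p6.

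Alternatives were the block, averaging probe sets per gene, dropping the dimmest 40% of genes, centring arrays on their medians, repeating quantile normalisation, a trended robust prior, array weights, 2 larger sets of probe sets, and each array left out in turn. Cyclic loess was added after the data were seen. The table held 0 columns of other samples.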

Additional observations from a re-analysis of the deposited data

How the results depend on the processing

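The count of called factors was 1 as reported and 1 with the replicate block, the mean of probe sets, the dim filter, median centring, renewed quantile normalisation, all probe sets with 1 symbol and cyclic loess. It was 2 with the trended robust prior (Tfcp2l1 added), 3 with array weights (Tfcp2l1 and Zfp42 added), 0 over all probe sets of the table, and 0 to 1 when 1 array was left out. Over all genes the count was 1552 as reported, 3472 with the replicate block, 2511 with array weights, 336 over all probe sets of the table, and 355 (without tamoxifen replicate 2) to 1580 when 1 array was left out. Renewed quantile normalisation gave 832 higher and 703 lower genes and cyclic loess 857 and 652, against 756 and 796. The block changed no other call among the factors. Of 160 changes of the factors under alternatives, 150 kept their direction and their side of the threshold, 6 lost a call, 3 gained one and 1 reversed: Esrrb, which ran from -0.00 (without untreated replicate 1) to 0.08 when 1 array was left out. Why the other settings moved these calls was not tested. No factor had a further probe set, so the planned comparison of further probe sets gave no value. In the fit as reported no gene with a change under 0.22 on the log2 scale was called, while Tfcp2l1 was called at 0.20 with the trended robust prior and at 0.21 with array weights.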
